A study of Mus musculus with 8 samples.

Results

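Cdkn1c, Dlk1 and Igf2r are 3 imprinted genes, that is, genes read mainly from the copy inherited from one parent. They were followed here through tables of differentially methylated regions (DMRs) from the hippocampus of mice that lack the DNA glycosylases Ogg1 and Mutyh. The genes were selected on called values: all table entries that carry their names were taken, which gave 9 entries among 9329 for 4903 gene names. All 9 are in the CG context, among 4871 CG entries, and cover 6 distinct regions. The CHH and CHG tables, with 4450 and 8 entries, held 0 entries for these genes. Because a region is in the tables only if it differed, the differences below are a description and carry no test.

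Whole-genome bisulfite sequencing had been run on hippocampal DNA of male mice of 6 months on a C57BL/6N background. The groups were wild type (WT), Mutyh-/-, Ogg1-/- and the double knockout (DKO, Ogg1-/- and Mutyh-/- together), with 2 libraries each and 8 in all, and each knockout was set against the same 2 WT libraries. Ogg1 removes 8-oxoguanine, an oxidised base, from DNA, and Mutyh removes adenine that was paired with it. The comparison asks where 5-methylcytosine differs when one or both enzymes are missing in every cell of the mouse. No label states that the 2 libraries of a group are from different mice, and their spread may be technical only. The files give no read depth per region or cytosine. The tables give no expression with which the labelled tissue could be checked, and bulk DNA mixes neurons, glia and vessel cells. A changed level per cell and a changed mix of cells therefore cannot be told apart.

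An imprinting control region carries methylation on 1 of 2 parental alleles, so its level in bulk DNA is expected near 50%. Such a region sets which copy of its neighbours is read, often through a long noncoding RNA that starts inside it. Cdkn1c encodes p57, an inhibitor of cyclin-dependent kinases, and is read from the maternal copy. Its control region is the promoter of the noncoding RNA Kcnq1ot1, in an intron of Kcnq1, and in the mouse the Cdkn1c promoter itself gains methylation on the paternal copy during development. Dlk1 encodes a transmembrane protein with EGF-like repeats, related to Notch ligands, and is read from the paternal copy. Its control region lies between Dlk1 and the noncoding RNA Meg3, and its last exon is known in the mouse as a region methylated more on one parental copy. Igf2r encodes the receptor that clears insulin-like growth factor 2 and carries enzymes tagged with mannose 6-phosphate to lysosomes. It is read from the maternal copy in most mouse tissues and from both copies in neurons. The promoter of the antisense RNA Airn, in an Igf2r intron, is its control region, and the Igf2r promoter itself is methylated on the paternal copy.

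The sequences below, from RefSeq on GRCm38.p6, show the base context of called regions. Each is a small part of its region, and the files do not give which of its CpG sites differed. They are written 5′ to 3′ on the strand of the gene, with each CpG in capitals. The first 3 are the 250 bases before the start site at the centre of a called start-site region: Igf2r (chr17:12769707-12769956, minus strand), Airn (chr17:12741061-12741310, plus strand) and Meg3 (chr12:109540746-109540995, plus strand). The last is the stretch of 200 coding bases with the most CpG in the Dlk1 gene body, in exon 5 of 5 (chr12:109459744-109459943, plus strand). Promoters of 2 of the 3 genes are in the reference table used, and Cdkn1c is named only.
Igf2r promoter: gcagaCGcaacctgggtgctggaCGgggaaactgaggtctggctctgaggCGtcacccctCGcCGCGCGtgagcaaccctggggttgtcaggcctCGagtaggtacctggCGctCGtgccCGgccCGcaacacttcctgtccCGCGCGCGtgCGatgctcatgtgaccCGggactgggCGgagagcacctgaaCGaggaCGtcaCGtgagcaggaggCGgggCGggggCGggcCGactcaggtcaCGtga
Airn promoter: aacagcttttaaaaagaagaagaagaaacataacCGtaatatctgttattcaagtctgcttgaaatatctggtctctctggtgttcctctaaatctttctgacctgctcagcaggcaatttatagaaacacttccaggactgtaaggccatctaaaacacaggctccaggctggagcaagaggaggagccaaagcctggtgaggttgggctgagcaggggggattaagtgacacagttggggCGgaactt
Meg3 promoter: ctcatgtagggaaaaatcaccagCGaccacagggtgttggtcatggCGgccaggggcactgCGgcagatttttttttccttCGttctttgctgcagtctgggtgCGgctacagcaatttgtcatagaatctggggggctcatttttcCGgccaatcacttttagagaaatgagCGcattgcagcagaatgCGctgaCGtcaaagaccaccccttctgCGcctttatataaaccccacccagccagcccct
Dlk1 coding window: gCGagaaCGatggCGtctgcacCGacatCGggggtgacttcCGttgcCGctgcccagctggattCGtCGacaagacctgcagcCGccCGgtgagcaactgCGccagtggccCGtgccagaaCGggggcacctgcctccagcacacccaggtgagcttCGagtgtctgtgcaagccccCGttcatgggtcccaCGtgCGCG

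The Igf2r stretch holds 27 CpG, and 8.56% of 32851 promoters have as many in the same 250 bases, against a median of 6. The Airn stretch holds 2, a count that 81.2% of promoters reach, and the Meg3 stretch holds 10, which 37.8% reach. The Dlk1 window holds 19 CpG in 200 bases. Over whole regions of 2000 bp, the Cdkn1c start site was the densest of the 3 genes with 171 CpG (85.5 per kb), and 0.777% of 901 called start-site regions had more per kb, around a median of 26.5. The Igf2r start site held 125 (62.5 per kb, exceeded by 6.44%). The Cdkn1c end site held 58 (29 per kb, exceeded by 15.2% of 633 end-site regions with a median of 15.5). The gene bodies were sparser, with 19.7 and 18 CpG per kb for the longer and shorter Dlk1 regions and 12.1 per kb for Igf2r, around a median of 8.73 per kb over 2120 gene bodies. All 6 regions were thus above the median CpG density of called regions of their kind, although the differences below concern the median over only those cytosines that the authors' tool kept.

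All 9 entries had less CG methylation in the knockout than in WT, and in none did the levels of the libraries overlap between groups. The latter is nearly fixed by the call, which asks for the same direction in all pairs, and held for 99.1% of all called CG regions. Of all called CG regions, 65.1% were lower in Mutyh-/-, 58.5% in Ogg1-/- and 57.9% in DKO. Gene bodies alone were more often higher in DKO (637 higher, 476 lower) and in Ogg1-/- (528 and 396), but not in Mutyh-/- (503 and 542). Levels are percentages of methylated CG, given as the median over the cytosines of a region. Each library's value is the mean of the library pairs it entered, with 4 pairs per knockout. Group values are mean ± SD over the libraries (n = 2). The start-site (TSS) and end-site (TES) regions reach 1 kb to either side, and the gene body lies between them. Of 27 combinations of gene, feature and knockout, 8 held an entry, with 2 entries for the Dlk1 gene body in DKO. The genes were selected as called ones, and the same share over all genes was not counted. A combination without an entry was not called and has no value here, which does not show that its level was the same.

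**Figure D1:**
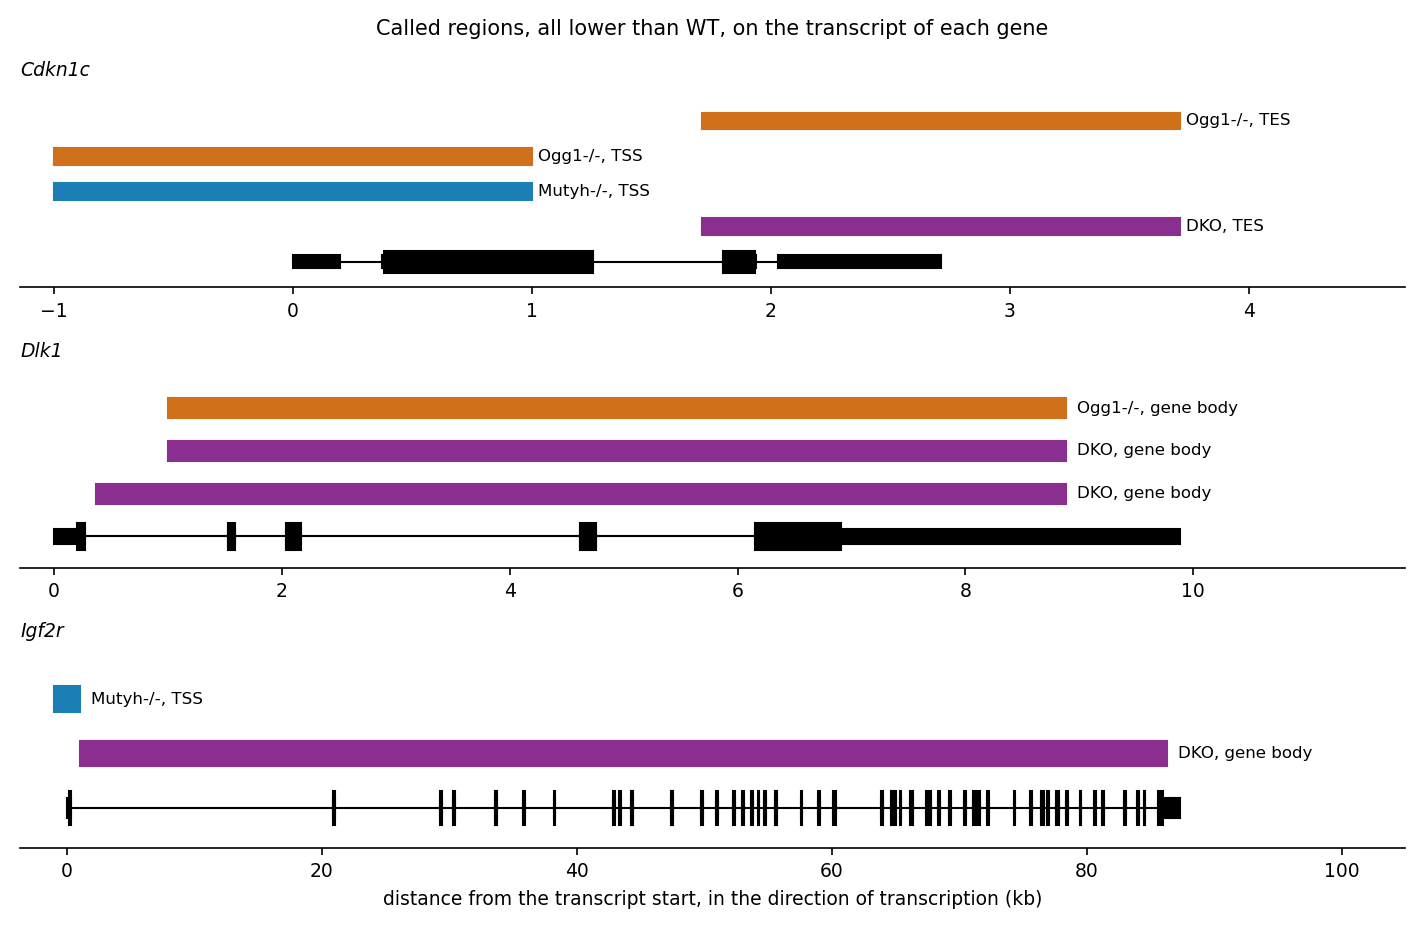
Position of the called CG regions (coloured bars, 1 per entry) on the RefSeq transcript of Cdkn1c, Dlk1 and Igf2r (black, thick boxes coding exons, thin boxes untranslated exons, line introns), with the distance from the transcript start in kb on the x axis. Cdkn1c was called at its start in Mutyh-/- and Ogg1-/- and at its end in Ogg1-/- and DKO, Dlk1 in its gene body in Ogg1-/- and DKO, and Igf2r at its start in Mutyh-/- and in its gene body in DKO.

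Cdkn1c, on the minus strand of chromosome 7, was the only one of the 3 genes with a called region in all 3 knockouts. No single Cdkn1c region was called in all 3, and how many of all genes were called in all 3 was not counted. The Cdkn1c start-site region (chr7:143460051-143462050) spans 1000 bp upstream, 208 bp of 5′ untranslated exon, 618 bp of coding exon and 174 bp of intron. In the Mutyh-/- table the WT libraries both had 60% and the knockout libraries 40% and 38.5%. The group values were 60% ± 0 and 39.2% ± 1.06, a difference of -20.8 percentage points. In the Ogg1-/- table the WT libraries had 59.5% and 60.5% and the knockout libraries 40% and 42%. That is 60% ± 0.707 against 41% ± 1.41, a difference of -19 points. WT thus lay 10 points above the half-methylated level in both tables and the knockouts about as far below it. The start site was not called in DKO.

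The Cdkn1c end-site region (chr7:143457339-143459338) holds 134 bp of coding exon, 178 bp of intron, 688 bp of 3′ untranslated exon and 1000 bp downstream. In Ogg1-/- the WT libraries had 74.5% and 72.5% and the knockout libraries 50% and 40.5%. Their means were 73.5% ± 1.41 and 45.2% ± 6.72, a difference of -28.2 points. In DKO the WT libraries had 77% and 75% and the knockout libraries 50% and 44.5%, or 76% ± 1.41 against 47.2% ± 3.89 and a difference of -28.8 points. The first knockout library sat at 50% in both tables and the second below it, so the distance between the knockout libraries was larger than that between the WT libraries. Without the first DKO library the difference was -34.5 points, and without the second -23. These were the largest differences of the 9 entries. By size the end site ranked 3 of 163 lowered end-site regions in Ogg1-/- and 12 of 203 in DKO, while the start site ranked 204 of 329 in Mutyh-/- and 235 of 284 in Ogg1-/-.

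Dlk1, on the plus strand of chromosome 12, was called in its gene body only, in Ogg1-/- and DKO and not in Mutyh-/-. The tables hold overlapping gene bodies that end at the same base and start at different ones. The longer (chr12:109453823-109462336) contains 1091 bp of coding exon, 1976 bp of 3′ untranslated exon and 5447 bp of intron, and the shorter (chr12:109454455-109462336) the same exons with 4815 bp of intron. The longer region in DKO had 75% and 76% in the WT libraries and 50% in both knockout libraries. Group values were 75.5% ± 0.707 and 50% ± 0, a difference of -25.5 points, which ranked 35 of 476 lowered gene bodies. The shorter region in DKO had 76.5% and 78.5% in WT and 56% and 54% in the knockout (77.5% ± 1.41 against 55% ± 1.41, difference -22.5). The extra bases at the 5′ side of the longer region thus went with a lower median in all 4 libraries. In Ogg1-/- the shorter region had 73% and 72% in WT and 53% and 50% in the knockout, or 72.5% ± 0.707 against 51.5% ± 2.12 and a difference of -21 points. The WT libraries are the same in both tables and their level for the shorter region differed by the table it was read from, for which the cause was not tested. The 2 entries in DKO share most of their bases and are not separate observations.

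Igf2r, on the minus strand of chromosome 17, was called at a different feature in Mutyh-/- and DKO and at none in Ogg1-/-. Its start-site region (chr17:12768707-12770706) spans 1000 bp upstream, 173 bp of 5′ untranslated exon, 134 bp of coding exon and 693 bp of intron, and includes the promoter printed above. In Mutyh-/- the WT libraries had 66.5% and 62.5% and the knockout libraries 46.5% and 33%. The means were 64.5% ± 2.83 and 39.8% ± 9.55, a difference of -24.8 points. Both knockout libraries were below both WT libraries, but their own distance was the widest of the 9 entries, and without 1 library in turn the difference lay between -30 and -19.5 points. The gene body (chr17:12683406-12768706), of 85301 bp and 1035 CpG, is intron over 77679 bp and coding exon over 7318 bp. In DKO it had 74.5% and 75% in WT and 53% and 52% in the knockout, or 74.8% ± 0.354 against 52.5% ± 0.707 and a difference of -22.2 points. It ranked 146 of 476 lowered gene bodies, and the start site 62 of 329 lowered start sites.

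**Figure D2:**
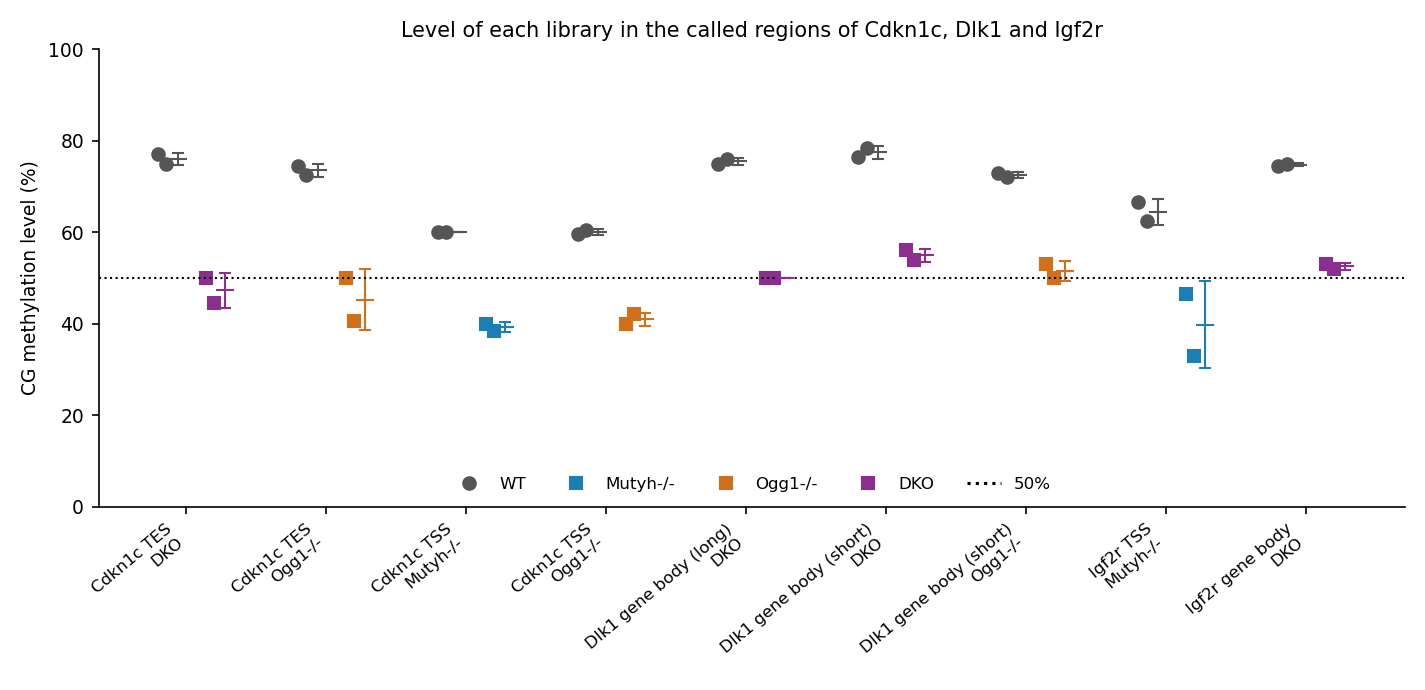
CG methylation level in percent (y axis) of each library in the 9 called entries of Cdkn1c, Dlk1 and Igf2r, with WT as circles and the knockout as squares in the colour of its genotype, crosses with bars for mean ± SD (n = 2) and a dotted line at 50%. The WT libraries all lie above 50%, from 59.5% to 78.5%, and the knockout libraries lie from 33% to 56%.

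The difference was negative in all 36 library pairs, as the rule of the tables requires. The authors kept a region when its relative ratio, the difference in score over the mean score on a scale of 1 to 2, lay beyond 0.1 in all 4 pairs. The pair with the smallest ratio was at 0.105 for the Cdkn1c start site in Ogg1-/- and the Igf2r start site in Mutyh-/-, just inside that limit, and at 0.154 for the longer Dlk1 region. The 4 pairs are built from only 4 libraries and share them. A library's level in one region also moved with its partner, by up to 15 points at the Igf2r start site, 12 at the Cdkn1c end site in DKO and 10 at Dlk1 in Ogg1-/-, and by 1 to 7 points elsewhere. The shift was larger than the SD between libraries of either group in 8 of 9 entries, all but the Cdkn1c start site in Mutyh-/-.

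**Figure D3:**
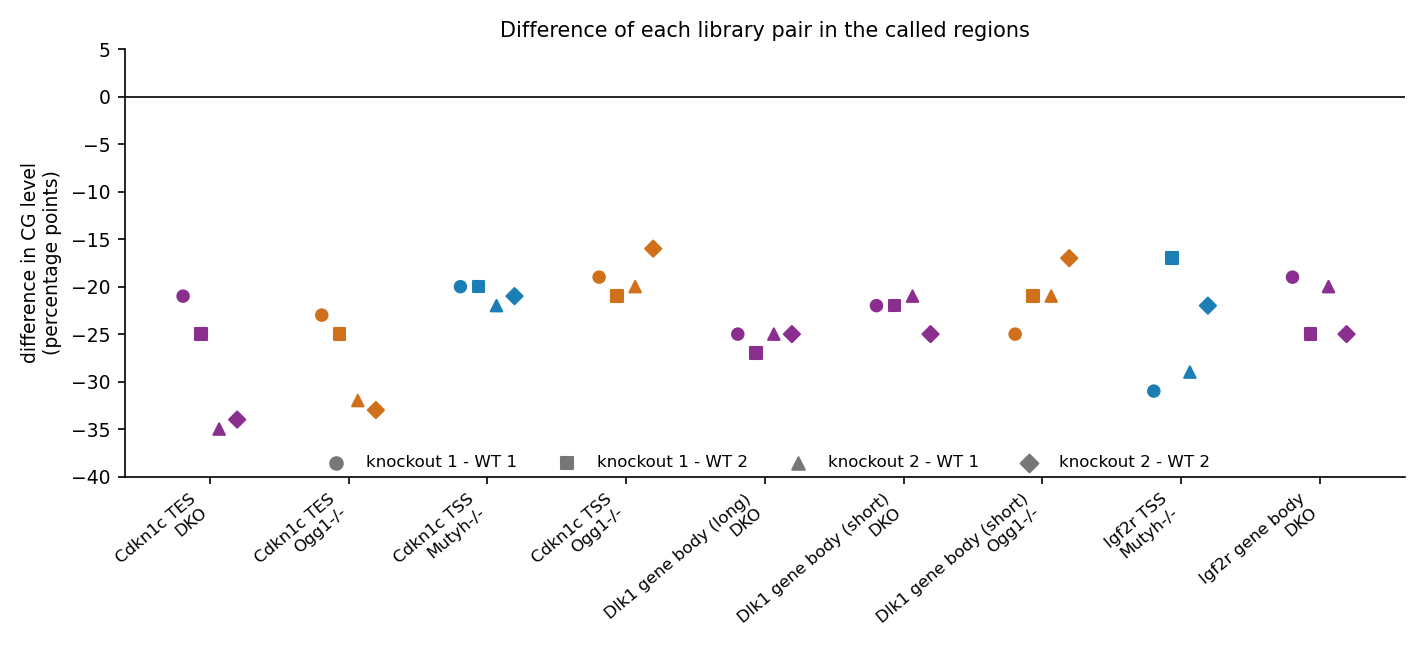
Difference in CG level, knockout library minus WT library in percentage points (y axis), for the 4 library pairs of each called entry, with the marker for the pair and the colour for the genotype. All 36 differences are below 0, from -35 to -16 points, and the pairs lie close together at the Cdkn1c start site in Mutyh-/-, from -22 to -20, and at the longer Dlk1 region, from -27 to -25.

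WT was above 50% in all 9 entries. Set against the half-methylated level, the knockouts were nearer to 50% than WT in 8 of these 9. The exception was the Cdkn1c start site in Mutyh-/-, where WT at 60% was nearer than the knockout at 39.2%. The knockout mean was within 10 points of 50% in 7 of 9 entries (3 of 3 in Ogg1-/-, 4 of 4 in DKO and 0 of 2 in Mutyh-/-), and the WT mean in 2 of 9. The first count was 7 to 9 with 1 library left out, and 9 without the second knockout libraries. With a margin of 5 points the counts were 6 and 0, and with 15 points 9 and 3. Such knockout levels were common: 51% of all lowered CG regions in Mutyh-/-, 52.7% in Ogg1-/- and 52.2% in DKO had a knockout mean within 10 points of 50%. How many of all lowered regions were nearer to 50% in the knockout than in WT was not counted. Nor was it counted how many had a WT mean within 10 points of 50%. By feature and knockout, the medians of lowered regions ran from 65.2% to 80.5% in WT and from 42.2% to 59.2% in the knockouts. Each level is a median over only the kept cytosines, so a region methylated on 1 allele need not read 50%. Lowered gene bodies at large had a median of 80.5% in WT and 59.2% in the knockout in DKO, and of 75.5% and 55.5% in Ogg1-/-. The Dlk1 and Igf2r gene bodies were below these medians on both sides.

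Values at simple fractions were frequent. A single pair value of exactly 50% was found in 13 of 36 knockout values of these genes, and 6 more were exactly 40%. On the WT side 11 of 36 were exactly 75% and 6 exactly 60%. Each library is counted once per pair it entered and the Dlk1 regions overlap, so these values are not separate observations. Shares at 40% and 60% over all regions were not taken. Over all CG values 4.31% were at 50%, against 0.436% at 49% and 0.549% at 51%, and in lowered regions 7.69% of knockout values were at 50% and 4.7% of WT values at 75%. A cytosine covered by few reads can take only such simple fractions, and with no depth per cytosine in the files its part in these values was not tested. A level of exactly 50% need not stand for 1 methylated allele of 2. Reads were not assigned to a parental allele in these files, and whether the lower levels come from one allele or both was not tested.

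**Figure D4:**
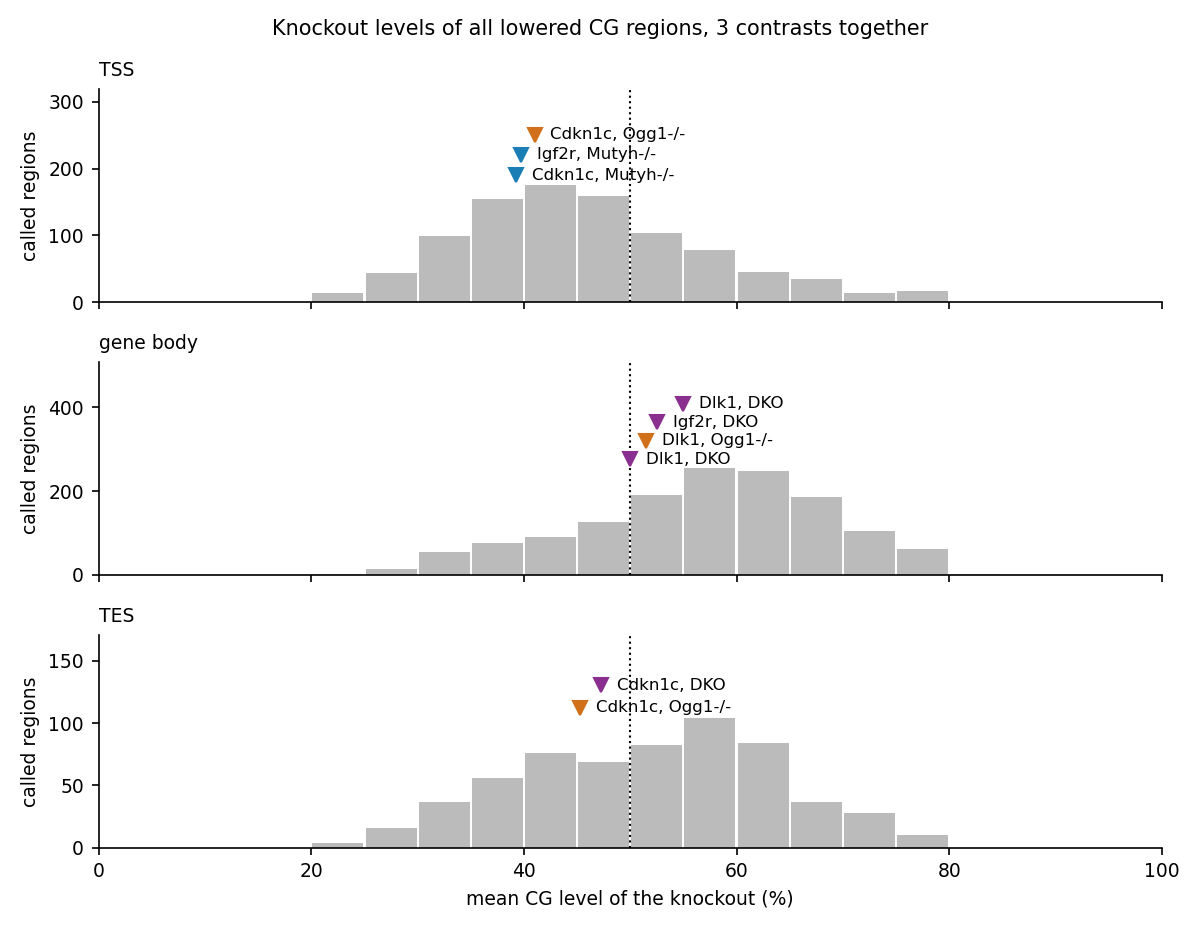
Number of lowered CG regions (y axis) by mean knockout level in bins of 5% (x axis), for start sites, gene bodies and end sites of all 3 contrasts, with triangles at the levels of Cdkn1c, Dlk1 and Igf2r in the colour of the genotype and a dotted line at 50%. The start sites of Cdkn1c and Igf2r lie between 39.2% and 41%, near the peak of their histogram, and the Dlk1 and Igf2r gene bodies between 50% and 55%, below the peak of theirs.

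None of the called regions of the 3 genes is a control region taken alone. Kcnq1ot1, whose start lies 165 kb from that of Cdkn1c, had no called CG region of its own. It lies wholly inside the Kcnq1 gene body (chr7:143108254-143426042), which was called in DKO with a higher level than in WT, opposite to Cdkn1c. That level is a median over the whole gene body and gives no value for the Kcnq1ot1 promoter. Higher was also the more common direction of called gene bodies in DKO (637 of 1113). The stretch between Dlk1 and Meg3, 77.7 kb wide, is outside the gene features of the tables except for its ends. There the Dlk1 end-site and Meg3 start-site regions reach 1 kb into it. The Airn start, in intron 2 of Igf2r and 28.4 kb from the Igf2r start, does lie inside the called Igf2r gene body. The Airn start-site region (chr17:12740311-12742310, 37.5 CpG per kb) was itself called in DKO. Its WT libraries had 75% and 74% and its knockout libraries 50% and 52.5%, or 74.5% ± 0.707 against 51.2% ± 1.77 and a difference of -23.2 points. The value for this promoter region of 2000 bp thus lay within 2 points of that for the whole Igf2r gene body in both groups. A region methylated on only one allele is expected near 50% when all its cytosines count, and WT was at 74.5%. The level here is a median over only the kept cytosines, and no called CG value was below 16%. It therefore need not read 50% in such a region, and the reason for the 74.5% was not tested. In Mutyh-/-, where the Igf2r start was lower, an Airn end-site region (chr17:12829124-12831123) was also lower. It had 76% ± 2.12 in WT and 51.2% ± 6.72 in the knockout. This region lies inside the annotated Airn gene, which runs on to base 12859884. In Ogg1-/-, where Igf2r was not called, the Airn gene, which runs through the Igf2r start, was lower in the CHH context, from 46.8% ± 4.6 to 27.2% ± 4.6. CHH levels too are medians over only the kept cytosines and are not shares of all CHH cytosines. Over all CHH entries the median WT level was 42.5%, and no value was below 10%.

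The neighbours of Dlk1 went both ways. The start site of Meg3 (chr12:109539996-109541995, 34.5 CpG per kb), which is methylated on the paternal copy, was higher in both knockouts in which Dlk1 was lower. In Ogg1-/- the WT libraries had 42.5% and 43% and the knockout libraries 61.5% and 59.5%, or 42.8% ± 0.354 against 60.5% ± 1.41. In DKO they had 45.5% and 43% in WT and 64.5% and 56.5% in the knockout, or 44.2% ± 1.77 against 60.5% ± 5.66. Meg3 was thus within 10 points of the half-methylated level in WT and farther from it in the knockouts, the reverse of Dlk1. In Mutyh-/-, where neither was called, the noncoding RNA Rian was lower in its gene body, from 70% ± 1.41 to 49% ± 0. Rtl1, Dio3 and Mirg, the other listed genes of this cluster, had no called CG region, so 3 of 6, with Dlk1 itself, had one in some knockout. Of all annotated genes 12.4% had a called CG region in any knockout and direction, and Dlk1 was chosen as a called gene.

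Around Cdkn1c, 4 of 12 listed genes of the cluster, with Cdkn1c itself, had a called CG region in some knockout, beside the same 12.4% of all genes. Kcnq1, a potassium channel gene, was lower at its start in Mutyh-/- (61.2% ± 1.06 to 42.2% ± 0.354) and higher in its gene body in DKO (55.5% ± 7.07 to 75.8% ± 6.72), where the libraries spread about as widely within WT as within the knockout. Cd81, a tetraspanin gene, was lower in its gene body in Mutyh-/- (76.2% ± 3.18 to 56% ± 1.41) and in Ogg1-/- (77.8% ± 6.72 to 57% ± 2.83). Slc22a18, a transporter gene next to Cdkn1c, was lower at its start in DKO, from 81.2% ± 5.3 to 59.5% ± 4.95. Of 16 non-imprinted or neighbouring genes listed at the edges of the 3 clusters, 1 had a called CG region in 1 knockout, Begain beside Dlk1 in DKO, from 84.5% ± 8.49 to 65.8% ± 3.89. That is 6.25% of them, where 3.67% of all genes were lower in DKO and 12.4% were called in any knockout and direction. With so few genes the edges cannot be contrasted with the clusters.

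In a list of 72 imprinted genes, of which 71 matched the annotation, a lowered CG region was present for 11 genes of Mutyh-/- mice (15.5%), 7 genes of Ogg1-/- mice (9.86%) and 9 genes of DKO mice (12.7%). Of all 24359 annotated genes 4.08%, 3.1% and 3.67% did. A raised region was found in 1, 3 and 6 listed genes (1.41%, 4.23% and 8.45%), against 2.03%, 1.99% and 2.48% of all genes. The list contains the 3 genes themselves and was drawn up with earlier results of these data known, and gene length and CpG content were not matched. Listed genes that share bases were counted separately, such as Nnat inside Blcap in Ogg1-/- and the Airn start inside Igf2r in DKO. These shares are therefore a description. Over the 3 knockouts 25 listed genes (35.2%) had a region, 19 of them a lowered one and 7 a raised one, with Kcnq1 in both groups. The median difference of the lowered regions was -20.6 points for Mutyh-/-, -20.9 for Ogg1-/- and -22 for DKO, close to the medians of lowered regions at large, which lay from -22.5 to -20.2 by feature and knockout.

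Among the other lowered genes, Igf2, the growth factor cleared by the Igf2r product, was lower in its gene body in DKO, with 60.5% in both WT libraries and 46.5% and 33% in the knockout. Grb10, an adaptor that damps insulin signalling, was lower in Mutyh-/-, from 76.2% ± 9.55 to 50% ± 0. Other lowered genes were Gnas, which encodes the stimulatory G protein subunit, in Ogg1-/- and DKO, its antisense RNA Nespas in Mutyh-/-, Nnat and Snrpn, both read strongly in neurons, with Blcap in Ogg1-/-, Inpp5f in Mutyh-/- and DKO, Ano1 and Peg13 in Mutyh-/-, and Peg12 in DKO. The raised ones beside Meg3 and Kcnq1 were Cobl in all 3 knockouts, Commd1 in Ogg1-/-, and Mest, Trappc9 and Zrsr1 in DKO. The promoter of Mest, which is methylated on the maternal copy, had 43.5% and 44% in WT and 62.5% in both DKO libraries. In the CHH context a lowered region was found for 12 listed genes of Mutyh-/- mice (16.9%), 13 genes of Ogg1-/- mice (18.3%) and 8 genes of DKO mice (11.3%), none of them Cdkn1c, Dlk1 or Igf2r. Of all annotated genes 5.37%, 6.88% and 3.05% had one.

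**Figure D5:**
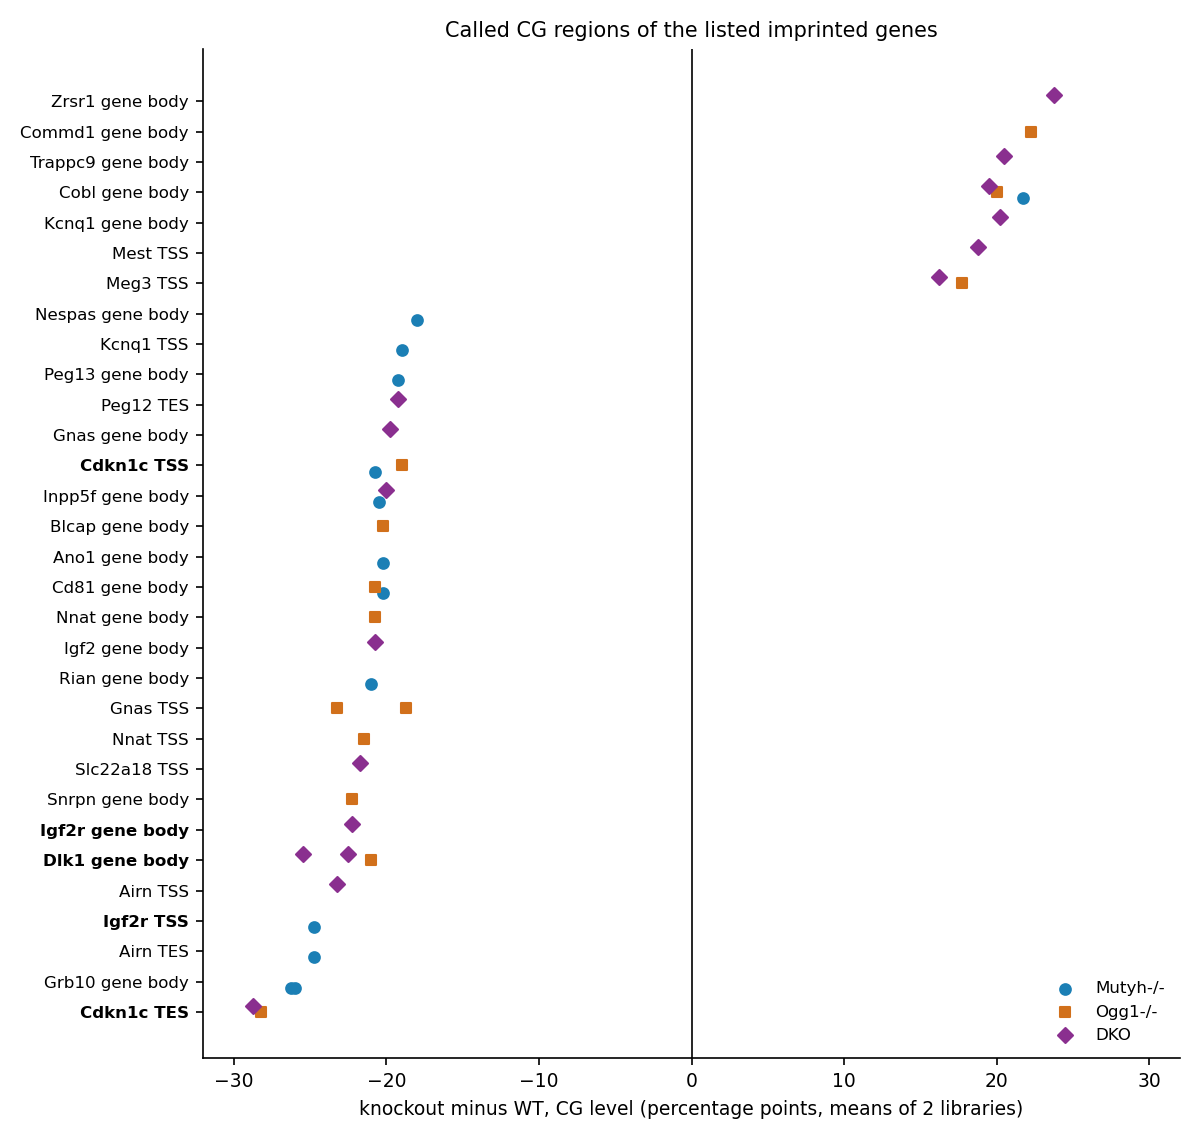
Knockout minus WT in CG level, in percentage points of the means of 2 libraries (x axis), for each called CG region of the listed imprinted genes (y axis), with the marker and colour for the knockout and the names of Cdkn1c, Dlk1 and Igf2r in bold. The 3 genes have only negative values, from -28.8 to -19 points, and 7 genes have a positive one; the gap around 0 is empty because only called regions are in the tables.

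Several unrelated genes had nearly the same levels as these regions, by the root mean square (RMS) difference over the 4 libraries of a table. For the Cdkn1c start site they were Tspo and Slc52a3 in Mutyh-/- (RMS 0.661 and 0.75 points) and Zfp783 and Supt5 in Ogg1-/- (1.17 and 1.89), among 376 and 321 other called start sites. For the Cdkn1c end site they were Phospho1 and Tmem130 in DKO (2.94 and 2.97) and Nbr1 and Cabp1 in Ogg1-/- (3.06 and 3.99). For the Igf2r start site they were Csrp1 and Grrp1 (1.89 and 2.56). For the longer Dlk1 region in DKO they were Septin5 (0.935) and Igf2r itself (1.89), among 1112 other gene bodies. The shorter Dlk1 region was nearest to Tmed8 and Tbkbp1 in DKO (1.15 and 1.46) and to Mycl and Dagla in Ogg1-/- (1.27 and 1.94), and the Igf2r gene body to Gm14204 and Septin5 (1.52 and 1.6). Apart from Igf2r none of these is on the imprinted list.

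The genes deleted in these mice also had called CG regions. The Mutyh gene body was at 94.5% in WT against 42.8% in Mutyh-/- and at 94.2% against 43.2% in DKO. The Ogg1 end site was at 65% in WT against 88.8% in Ogg1-/-, a difference of 23.8 points beside a median of 21 over raised end sites, and Ogg1 had no called CG region in DKO. Of 31 listed markers of neurons, astrocytes, oligodendrocytes, microglia and vessel or choroid plexus cells, a lowered CG region was present for 7 in Mutyh-/- mice (22.6%), 1 in Ogg1-/- mice (3.23%) and 2 in DKO mice (6.45%), where 4.08%, 3.1% and 3.67% of all genes did. A raised one was found for 1, 5 and 2 markers (3.23%, 16.1% and 6.45%), against 2.03%, 1.99% and 2.48% of all genes. Their part in the levels of Cdkn1c, Dlk1 and Igf2r was not tested.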

How the data were processed

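Genomic DNA of 8 hippocampal libraries was bisulfite sequenced, and the labelled genotype gave the groups. The authors aligned reads to GRCm38 with Bismark 0.22.3, as the submitters' notes also state, kept cytosines with coverage of at least 4 and called regions with HMST-Seq-Analyzer (3 or more methylated sites at start and end sites, 5 in gene bodies, sites at most 200 bp apart). The deposited medians are a score from 1 to 2, read here as 1 plus the methylated fraction. Levels are the score minus 1 in percent. The deposited tables also hold the authors' relative ratio and Wilcoxon p-value per pair, which were not used. Ratios were recomputed from the medians.

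The labels' replicate numbers were matched to the numbers in the column names. Annotation and sequences came from RefSeq on GRCm38.p6. Analysis used Python 3.11.15 with pandas 2.3.3, numpy 2.4.6 and pysam 0.24.0, and figures matplotlib 3.10.9. The arithmetic was tested on simulated data. A total of 3058 gene symbols occurred in the CG tables and 3020 matched the annotation, and 3 names turned into dates by a spreadsheet were restored by position. Genes and lists were chosen with earlier results of these data known. Named genes were the 3 genes, the listed imprinted genes, the 2 nearest regions by library levels for each region, and genes overlapping them. No test of single regions was run, since the regions had been selected on these values. Alternatives left out each library, took the smallest pair, and changed the margin around 50%, the ratio and the gene list. The DKO table for CHG holds a header only. No depth per region is given, so no interval was computed.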

Additional observations from a re-analysis of the deposited data

How the results depend on the processing

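All 63 alternative values of the differences at Cdkn1c, Dlk1 and Igf2r were negative, as the call requires of every library pair. The SD used as a yardstick comes from the same libraries, so it gives no separate check. Within 1 SD of the value given stayed 55 of them. The others were as follows. With 1 library left out, the Cdkn1c end site in DKO ranged from -34.5 to -23 points and the Igf2r gene body in DKO from -25 to -19.5. The library pair with the smallest difference gave -21 points for the Cdkn1c end site in DKO, -16 for its start site in Ogg1-/-, -17 for Dlk1 in Ogg1-/- and -19 for the Igf2r gene body in DKO. The count of entries with a WT level near 50% was 0 within 5 points and ranged from 1 to 3 with 1 library left out. With coding genes only, the lowered imprinted genes in Mutyh-/- numbered 7. A relative ratio beyond 0.2 in all 4 pairs left 0 imprinted genes in each knockout and direction, and with 1 library left out 0 to 1 (the 1 was found without knockout replicate 1, for lowered genes in Ogg1-/- and in DKO). Beyond 0.12, a limit chosen after seeing the data, 3, 1 and 3 lowered genes and 0 raised genes were left in Mutyh-/-, Ogg1-/- and DKO. Among them were Cdkn1c in all 3 knockouts and Dlk1 in DKO, with 5 of the 9 entries, while Igf2r was not. How many of all called CG regions or of all genes lay beyond 0.12 or 0.2 was not counted. Nothing particular to the listed genes can therefore be read from these counts. No paired analysis was possible because the levels came from no test, and the labels do not say whether a replicate number marks a shared batch. With same-numbered library pairs only, the differences ran from -28 to -17.5 points. The files give no depth per region, so the precision of each level is unknown.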
